A study of Mus musculus with 14 samples.

Results

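The comparison of Adult with E18 asked what a mouse lung that is about to be born still gains or loses before it is mature. It rested on 4 of the 14 arrays of a time course of lung development. The E18 group was 2 arrays of lung RNA from ICR embryos at embryonic day 18, with the day of the vaginal plug as day 0, and the Adult group was 2 arrays of lung RNA from ICR mice at postnatal day 30. The other arrays, of embryonic days 12, 14 and 16 (E12, E14, E16) and postnatal days 2 and 10 (P2, P10), entered the estimate of the spread and show when differences arose. Neither group carried an engineered allele or received an agent. Each was an Affymetrix oligonucleotide array for the whole mouse genome, on which a gene is read by 1 or more sets of short probes, and RNA came from whole lungs that had been pooled. Neither the size of a pool nor whether both replicates came from different pools is given in the sources used here, so p-values measure the spread between these arrays, which may be technical. Whole lungs mix many cell types, and more cells of a type cannot be told apart from more RNA per cell.

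At E18 the lung is in its saccular stage: the airways have branched, thin-walled sacs end them, and the epithelium already makes surfactant. Birth replaces the fluid in the sacs with air, raises the oxygen tension and opens the vessels to the whole output of the right heart. In the weeks that follow, septa divide the sacs into alveoli, myofibroblasts lay down elastin at the septal tips, the double capillary net of the young septa becomes a single one, and cell division slows. The airway epithelium and the resident leukocytes meet inhaled particles and microbes over the same weeks.

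Values are log2 probe set levels, so a difference of 1 is a doubling. For each gene, the probe set whose mean across the 14 arrays was highest was taken, and levels are compared within a gene and not between genes. Of 18193 genes, 534 were called higher in Adult than at E18, which is 2.94%, and 364 were called lower, which is 2.00%. A call needed a limma adjusted p under 0.05 over all 45037 probe sets, a difference above 1.2 in log2 units (2.3-fold) and a higher group mean above 7. Without the thresholds on difference and level, 7131 genes had an adjusted p under 0.05, 3494 of them higher and 3637 lower in Adult. Of the 898 called genes, 489 had several probe sets, and 0 of these had another probe set called in the opposite direction. The median difference over all 18193 genes was 0.02. Differences above 2 were found for 176 higher and 113 lower genes, and differences above 4 for 16 and 9.

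Correlation between replicates over all probe sets was 0.9961 at E18 and 0.9956 in Adult. In E18 replicate 1 the 18S ribosomal RNA control read 10.73, against 7.91 to 8.64 on the other arrays, and its actin control, as the 3' minus 5' signal, was 0.74, against 0.51 for E18 replicate 2 and 0.59 and 0.87 for the Adult arrays. Leaving out each of the 4 arrays in turn gave 532 to 538 higher and 352 to 407 lower genes. Defining lung markers read above the level threshold of 7 in both groups. Nkx2-1, a transcription factor of lung epithelium, read 8.66 and 8.13 at E18 and 7.60 and 7.46 in Adult (limma adjusted p = 0.00502). Foxj1, a factor of ciliated cells, read 8.04 and 7.71 against 8.02 and 7.93. Surfactant protein C (Sftpc) read 14.76 and 14.72 at E18 and 14.79 and 14.83 in Adult, the type I cell receptor Ager 14.11 and 14.16 against 14.49 and 14.50, and the endothelial adhesion protein Pecam1 11.11 and 11.28 against 11.65 and 11.74.

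All labels give female, and sex-linked genes went against that label on both E18 arrays and on the P2 and P10 arrays, but not on the Adult arrays. Eif2s3y, Kdm5d and Uty lie on the Y chromosome, and Xist is the RNA that coats the inactive X chromosome of female cells. Eif2s3y read 7.65 and 8.10 at E18 and 3.60 and 2.86 in Adult, a difference of -4.65 (SE 0.81, adjusted p = 0.000542), whereas Xist read 12.66 and 11.97 at E18 and 12.65 and 12.84 in Adult. Both E18 arrays thus carried both signals, and both Adult arrays carried Xist with Eif2s3y near the bottom of the scale. On the P2 and P10 arrays Xist read between 6.88 and 7.41 and Eif2s3y between 8.35 and 8.61. Between E18 and Adult, sex makeup and age therefore cannot be told apart. When the P2 and P10 arrays were left out of the fit, 533 genes were higher and 363 lower. That setting leaves the E18 and Adult means as they were and changes only the estimate of the spread. It therefore cannot separate sex makeup from age.

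**Figure D1:**
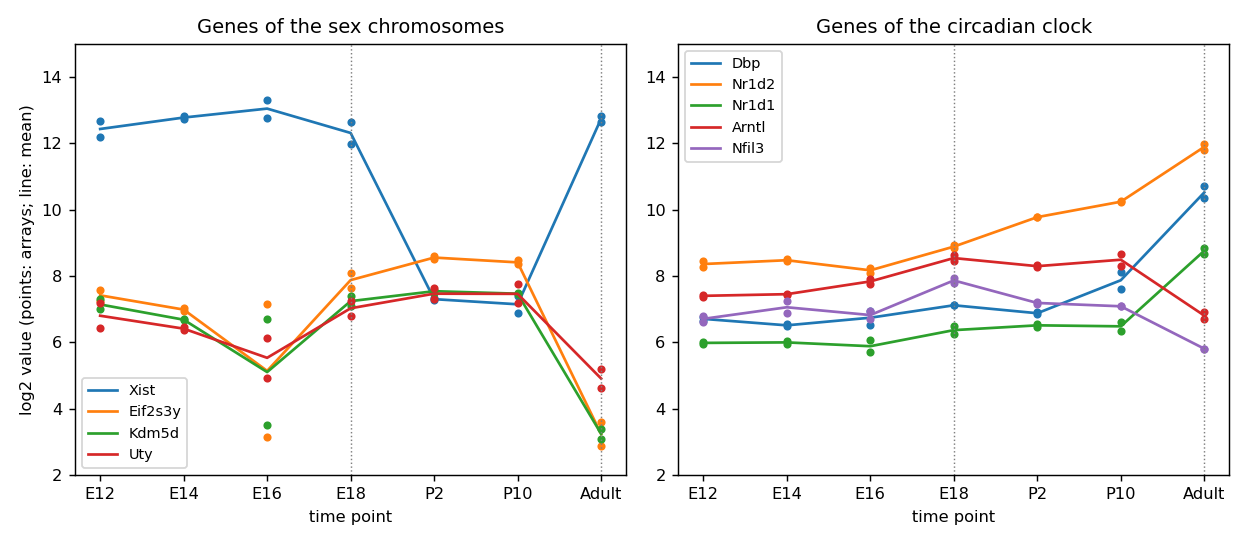
Log2 values of Xist and 3 Y-linked genes (left) and of 5 genes of the circadian clock (right) at the 7 time points; points are arrays, 2 per time point, lines join their means, and dotted lines mark E18 and Adult. Y-linked genes are high together with Xist at E18 and low beside high Xist in Adult, and Dbp, Nr1d1 and Nr1d2 are highest in Adult while Arntl and Nfil3 are lowest there.

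The widest difference of the comparison belonged to Bpifa1, an antimicrobial and surface-active protein that the upper airway secretes. It read 4.11 and 4.54 at E18 and 11.45 and 11.85 in Adult, a rise of 7.32 (SE 0.19, adjusted p = 3.05e-11), and none of this rise was present at P10, where the mean was 4.28. The widest fall was that of Dlk1, a Notch-like membrane protein of fetal mesenchyme, which went from 13.58 and 13.22 to 6.68 and 7.03, a difference of -6.55 (SE 0.16, adjusted p = 2.02e-11). Most of that fall had taken place by P2, with a step of -4.58. Among the 20 largest rises were 4 genes of class II antigen presentation, and among the 20 largest falls were 5 imprinted genes.

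**Figure D2:**
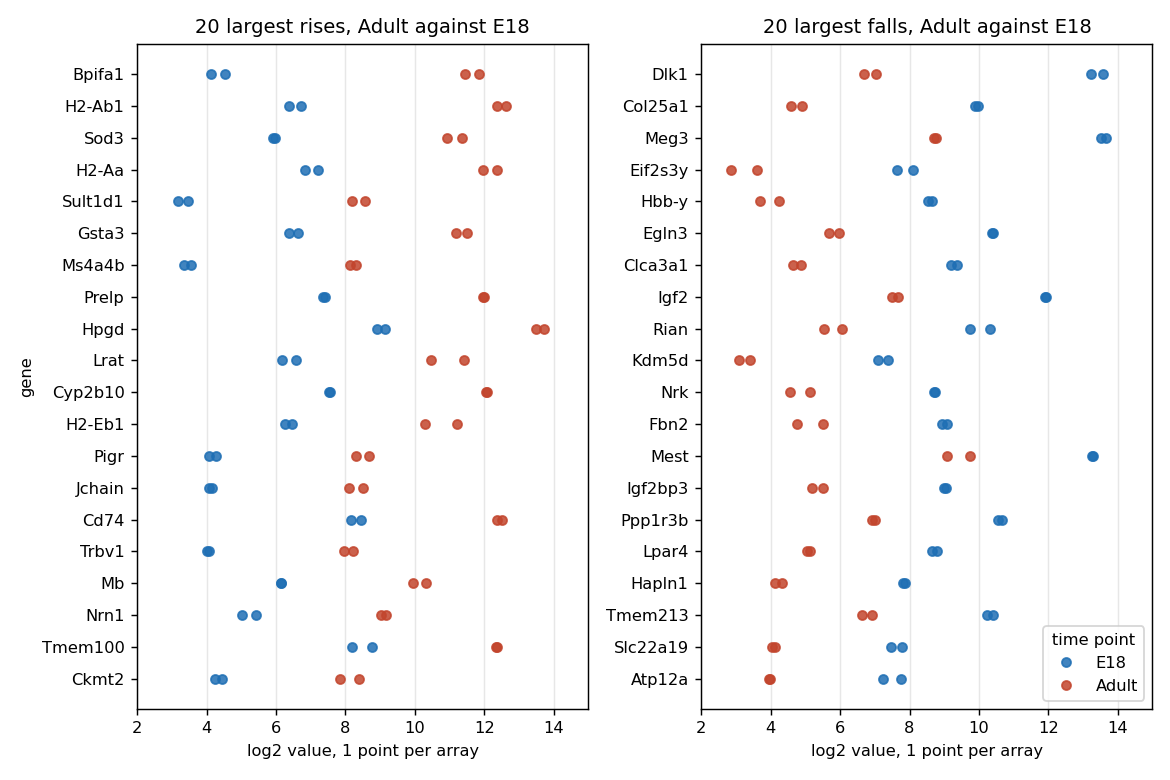
Log2 values of the 20 genes with the largest rise (left) and the 20 with the largest fall (right) from E18 to Adult, 1 point per array, with E18 in blue and Adult in red. The genes were picked for the size of their difference, so the arrays of the time points lie apart in each. The gaps are widest for Bpifa1 on the left and Dlk1 on the right.

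When after birth the differences arose was read from the steps between P2, P10 and Adult, which share arrays with the comparison itself. For 360 of the 534 higher genes (67.4%) the step from P10 to Adult was the largest of the 3, for 126 (23.6%) it was the step from E18 to P2 and for 48 (8.99%) the step from P2 to P10. The 364 lower genes divided into 192 (52.7%), 143 (39.3%) and 29 (7.97%) in the same order. Over all genes, the step from E18 to P2 had 0.539% called higher and 0.775% lower, the step from P2 to P10 had 0.264% higher and 0.264% lower, and the step from P10 to Adult had 2.04% higher and 1.79% lower. The steps span unequal times. Sex makeup also changed in the step from E18 to P2 and in that from P10 to Adult. Xist was high at E18, low at P2 and P10 and high in Adult. Y-linked genes were high at E18, P2 and P10 and low in Adult. In those steps sex makeup and age cannot be told apart. From E18 through P2 and P10 to Adult, the median level of the 534 higher genes ran 7.46, 8.11, 8.21 and 9.30, and that of the 364 lower genes was 9.17, 8.55, 8.44 and 7.31.

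**Figure D3:**
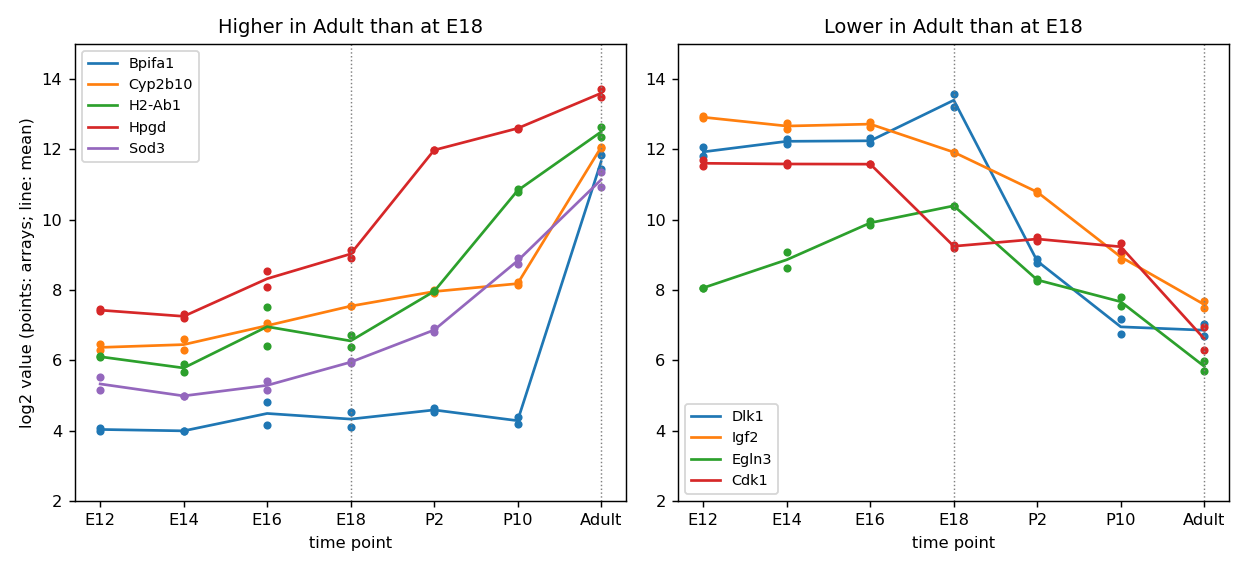
Log2 values of 5 genes higher (left) and 4 genes lower (right) in Adult than at E18, at the 7 time points; points are arrays, 2 per time point, lines join their means, and dotted lines mark E18 and Adult. Hpgd and Dlk1 make their widest step between E18 and P2, H2-Ab1 between P2 and P10, and Bpifa1, Cyp2b10 and Cdk1 between P10 and Adult.

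Some of the 20 largest rises and 20 largest falls belonged to none of the gene lists described below. Prelp, a proteoglycan of connective tissue, rose from 7.35 and 7.42 to 11.99 and 11.96, and Lrat, which esterifies retinol for storage, from 6.18 and 6.58 to 10.46 and 11.41, each mostly after P10, with last steps of 3.31 and 3.41. Ms4a4b, a membrane protein of T cells, rose by 4.78, the neuronal growth factor neuritin (Nrn1) by 3.87 and the muscle creatine kinase Ckmt2 by 3.78. Col25a1, a collagen anchored in the membrane, had the second largest fall, from 9.97 and 9.89 to 4.90 and 4.59, a difference of -5.19 (SE 0.12, adjusted p = 1.47e-11), of which -4.09 came after P10. The kinase Nrk, the lysophosphatidic acid receptor Lpar4 and the organic anion transporter Slc22a19 fell by 3.87, 3.63 and 3.54, and Clca3a1, related to regulators of chloride channels, went from 9.38 and 9.20 to 4.87 and 4.64.

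The 5 largest rises and falls of each step held further genes. Between E18 and P2 the methyltransferase Gnmt changed by -3.21, the scavenger receptor Scara5 by -3.15 and the elastase Cela1 by -2.97, and their steps after P10 were 1.14, 1.39 and 0.35. From P2 to P10 the cell cycle inhibitor Cdkn2c and the glutamate receptor subunit Gria1 rose by 2.08 and 2.02. The secretoglobin Scgb3a1 had steps of 1.35, -2.37 and 2.54, and the protease inhibitor Stfa3 of 1.90, -2.20 and -2.30. After P10, Ms4a4d rose by 5.18, and the endopeptidase Phex, which had gained 1.48 by P2, changed by -3.66.

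Genes were then grouped into lists by function or cell type, and each list was described by its called members and its median difference, beside the 2.94% and 2.00% of all genes. In 3 of the 50 lists, those of antigen presentation, mitosis and imprinted growth genes, a majority of the members were called. Lower members outnumbered higher ones by 21 to 0 in mitosis, by 12 to 1 among imprinted genes and by 9 to 0 in glycolysis and hypoxia. Higher members outnumbered lower ones by 14 to 0 in antigen presentation, by 17 to 0 in endothelium, by 16 to 1 in detoxification and by 12 to 1 in airway secretion.

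**Figure D4:**
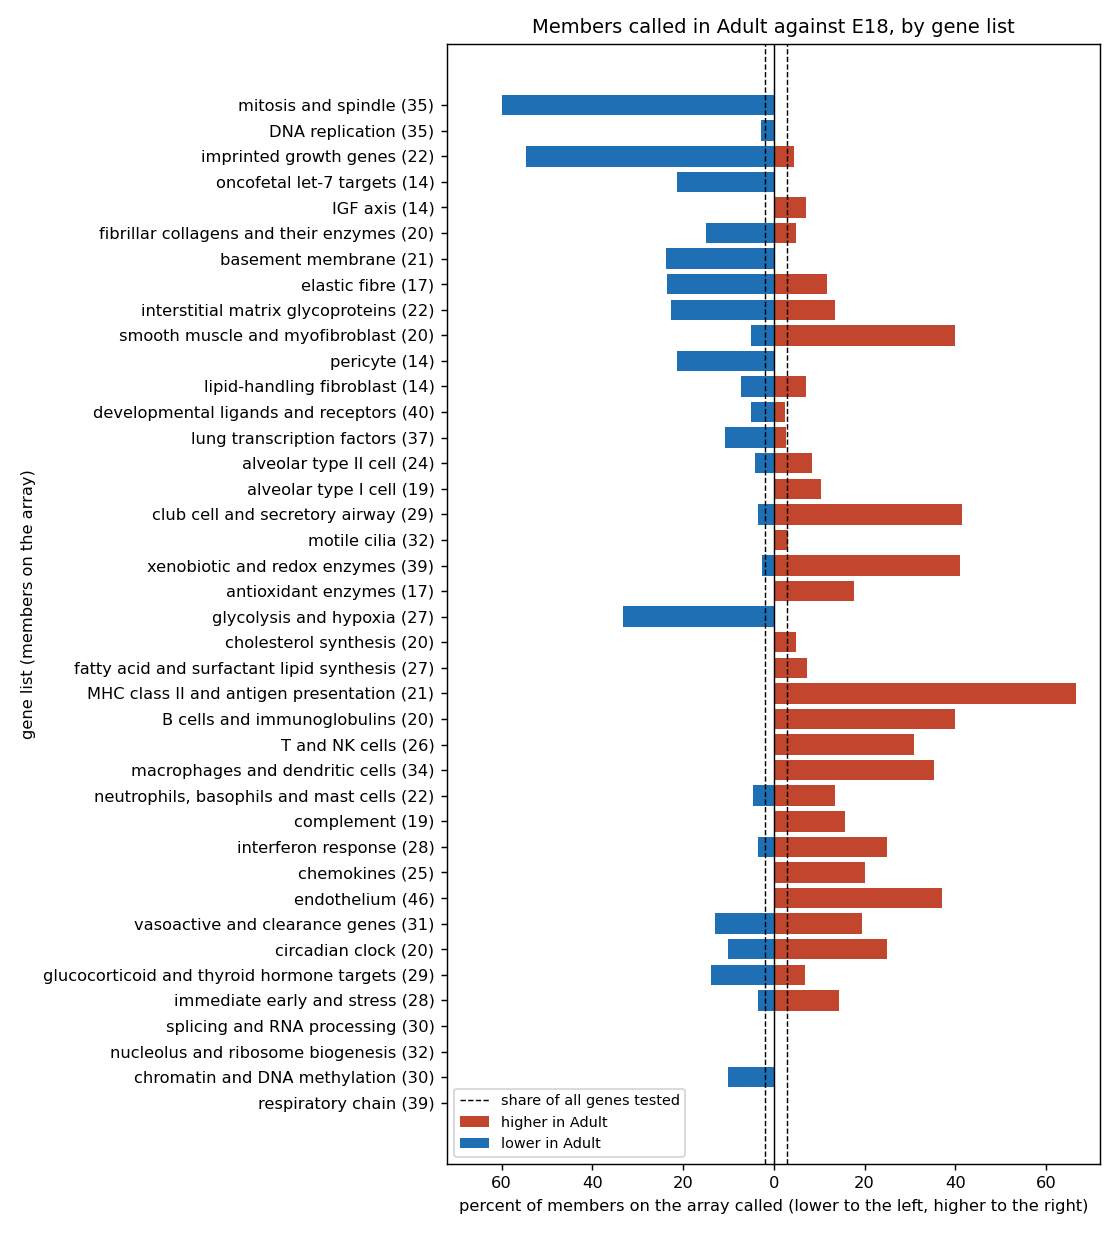
Percent of the members on the array that were called lower (blue, to the left) or higher (red, to the right) in Adult than at E18, for the gene lists other than those of other tissues, with the number of members in brackets; dashed lines are the shares of all genes tested. Antigen presentation has the highest share called higher (66.7%), and mitosis has the highest share called lower (60%).

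Many genes of mitosis were lower in Adult, and few genes of DNA replication were called. Of 35 genes of mitosis and the spindle, 21 were lower and 0 higher, with a median difference of -1.50. Of 35 genes of DNA replication, 1 was lower and 0 higher, with a median of -0.42. At an adjusted p under 0.05 alone, 35 mitosis and 19 replication genes were lower and 0 of either were higher. Cdk1, the kinase that drives entry into mitosis, read 9.20 and 9.29 at E18 and 6.94 and 6.28 in Adult, a fall of 2.63 (SE 0.16, adjusted p = 5.41e-08). The ubiquitin-conjugating enzyme Ube2c went from 9.03 and 9.03 to 7.27 and 6.50, the topoisomerase Top2a from 9.28 and 9.54 to 7.38 and 7.24, and the proliferation antigen Mki67 from 9.53 and 9.52 to 7.59 and 7.43. Kif20a, a kinesin of cytokinesis, fell by 2.14. Ttk and Melk, both mitotic kinases, differed by -1.97 and -1.72 but did not reach the level threshold in either group. The lower member of the replication list was Rrm2, a subunit of ribonucleotide reductase, at 8.74 and 8.82 against 7.95 and 7.05. Its call was lost when Adult replicate 2 was left out. Among members that were not called, the replication clamp Pcna differed by -0.14, and the helicase subunits Mcm3 and Mcm6 by -0.12 and -0.81. The differences lay after P10: Cdk1 changed by 0.20 from E18 to P2, by -0.22 from P2 to P10 and by -2.62 from P10 to Adult. When the mean over all probe sets of a gene was taken, 10 mitosis genes were lower, and Top2a, at -1.01, was not among them.

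Since these genes are known to be driven through short promoter elements that differ between phases, the stretch before the start of the 3 mitosis genes with the largest falls and a promoter in the table, and of 1 DNA replication gene are shown. The latter was picked for an E2F site in this stretch, as the one of that kind with the most negative difference (not called), so its E2F sites show what the element looks like and are no finding. Each is the 150 bases before the transcription start given by RefSeq (GRCm38.p6), written 5' to 3' on the strand of the gene. Capitals mark matches, on either strand, to the cell cycle homology region (CHR, TTTGAA), the CCAAT box (CCAAT) or an E2F site (TTTCCCGC or TTTGGCGC).
Cdk1, chr10:69352913-69353062, minus strand: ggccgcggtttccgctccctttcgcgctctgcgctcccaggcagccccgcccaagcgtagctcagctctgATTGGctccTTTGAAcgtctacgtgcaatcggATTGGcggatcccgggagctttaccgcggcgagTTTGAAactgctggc
Ube2c, chr2:164769779-164769928, plus strand: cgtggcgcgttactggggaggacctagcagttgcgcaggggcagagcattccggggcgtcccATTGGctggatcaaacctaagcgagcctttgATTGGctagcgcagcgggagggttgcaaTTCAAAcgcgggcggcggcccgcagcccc
Top2a, chr11:99024190-99024339, minus strand: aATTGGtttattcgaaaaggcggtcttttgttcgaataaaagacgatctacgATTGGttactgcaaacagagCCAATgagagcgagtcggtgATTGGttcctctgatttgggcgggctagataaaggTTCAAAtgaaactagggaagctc
Mcm6, chr1:128359706-128359855, minus strand: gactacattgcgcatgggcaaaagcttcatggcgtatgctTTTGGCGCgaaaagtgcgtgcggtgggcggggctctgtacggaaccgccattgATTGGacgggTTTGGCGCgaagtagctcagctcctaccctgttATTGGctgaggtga

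All 3 mitosis genes held a CHR within 30 bases of the start and CCAAT boxes upstream of it. Over the window from 250 bases before to 50 after the start, 24 of 32 promoters of the mitosis list (75.0%) had a CHR and 0 had an E2F site, while 10 of 34 promoters of the replication list (29.4%) had an E2F site and 3 (8.82%) a CHR. Among the 18109 promoters of 14452 genes tested, 13.4% had a CHR, 2.34% an E2F site and 37.4% a CCAAT box. CCAAT boxes were found in 75.0% of mitosis and 55.9% of replication promoters. These are counts of letters and were not tested as binding sites. Of 30 genes of chromatin and DNA methylation 3 were lower, among them the Polycomb methyltransferase Ezh2, at 9.29 and 9.17 against 8.09 and 7.80. None of 30 splicing, 32 nucleolar or 39 respiratory chain genes was called, with medians of -0.32, -0.10 and -0.20. At an unadjusted p under 0.05 in limma, 19 splicing, 12 nucleolar and 20 respiratory chain genes were lower and 1, 3 and 3 were higher, and the unmoderated ANOVA contrast called 0 of them as well.

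**Figure D5:**
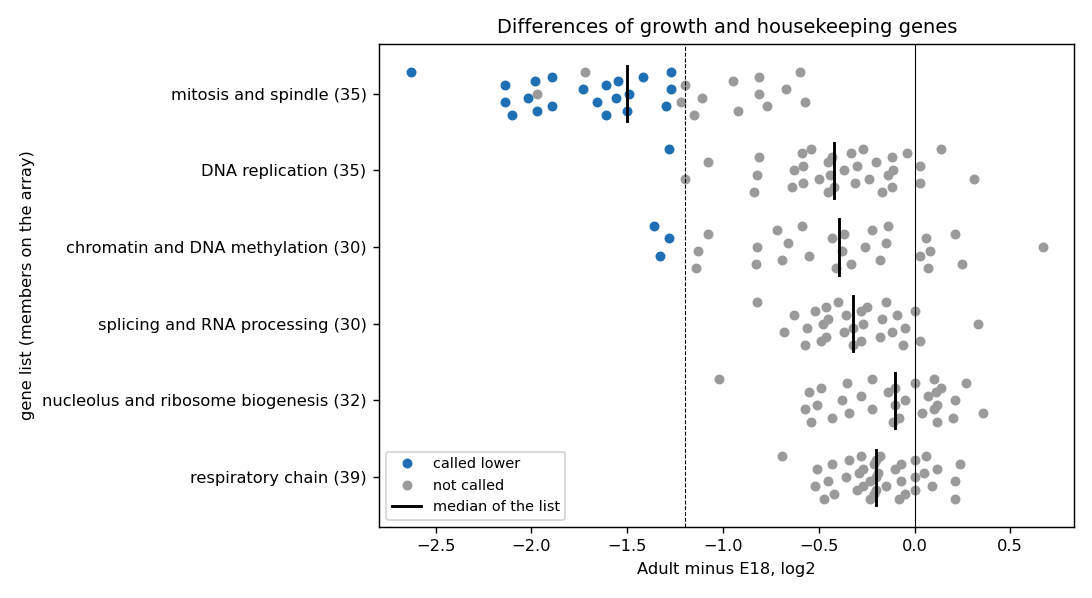
Adult minus E18 difference in log2 units of each member on the array of 6 lists, with members called lower in blue, others in grey, a bar at each list's median and a dashed line at -1.2. The mitosis list lies farthest to the left, with a median of -1.50, and the respiratory chain lies close to 0.

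Imprinted growth genes are expressed from 1 parental allele and govern fetal growth. Of 22 on the array, 12 were lower, 1 was higher and the median difference was -1.73. Igf2, the paternally expressed fetal growth factor, read 11.90 and 11.94 at E18 and 7.68 and 7.49 in Adult, a fall of 4.34 (SE 0.11, adjusted p = 2.02e-11), in steps of -1.14, -1.84 and -1.36. Its clearance receptor Igf2r, expressed from the maternal allele, went from 11.51 and 11.50 to 9.5 and 9.46. Meg3, a maternally expressed noncoding RNA of the same cluster as Dlk1, fell from 13.52 and 13.67 to 8.78 and 8.71. Rian and Mirg, noncoding RNAs of that cluster which host small RNAs, fell by 4.23 and 1.88. The 4 genes of the cluster thus fell together, although Dlk1 is read from the paternal and the other 3 from the maternal chromosome. Mest differed by -3.86, the zinc finger gene Peg3 by -3.40, the signalling adaptor Grb10 by -2.37 and the cell cycle inhibitor Cdkn1c by -2.33. Not called were Ndn at -0.87, Gnas at -0.61, Phlda2 at -0.37 and Peg10 at 0.14. The higher member was Dcn, the collagen-binding proteoglycan decorin, imprinted in mouse placenta, at 9.36 and 9.41 against 11.66 and 11.39.

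A list of oncofetal genes, drawn up around the targets of the let-7 microRNAs, had 3 of 14 members lower and 0 higher. The mRNA-binding protein Igf2bp3 read 9.0 and 9.04 at E18 and 5.50 and 5.18 in Adult. The chromatin protein Hmga2 went from 8.01 and 8.18 to 6.23 and 6.35, and Hif3a, an inhibitory relative of the hypoxia-inducible factors, from 11.27 and 11.35 to 7.90 and 7.89. Lin28a and Lin28b, which block let-7 maturation, differed by -0.20 and 0.14. In the IGF axis 1 of 14 genes was called: the binding protein Igfbp2 rose from 6.98 and 7.21 to 9.62 and 10.48, a difference of 2.95 (SE 0.20, adjusted p = 1.11e-07). Its means at E12, E14 and E16 were 10.33, 10.54 and 10.05, so the rise led from a low point at E18 back to about the earlier level. Igf1 and its receptor Igf1r differed by -0.89 and -0.29.

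Genes of glycolysis and hypoxia had 9 of 27 members lower, 0 higher and a median of -0.76. Egln3, an oxygen-dependent prolyl hydroxylase that is itself induced by hypoxia, read 10.40 and 10.39 at E18 and 5.97 and 5.68 in Adult, a fall of 4.57 (SE 0.14, adjusted p = 1.43e-10). Ankrd37 went from 10.63 and 9.78 to 7.12 and 6.99, and Ndrg1 from 11.06 and 10.88 to 8.93 and 8.83, both known targets of hypoxia-inducible factor. The mitophagy receptor Bnip3 fell by 1.51 and the glucose transporter Slc2a1 by 1.49. Their step from E18 to P2 was wider than the whole difference and was followed by a rise after P10: Slc2a1 changed by -2.13, -0.64 and 1.28, and Bnip3 by -1.88, -0.44 and 0.81. Ldha, Pgk1 and the growth factor Vegfa, not called, differed by -1.02, -0.76 and 0.28.

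Matrix genes were called in both directions. Of 17 elastic fibre genes 4 were lower and 2 higher. Elastin (Eln) read 13.56 and 13.43 at E18 and 10.97 and 10.36 in Adult, a fall of 2.83 (SE 0.18, adjusted p = 8.53e-08), after a step of 0.90 from P2 to P10 and one of -3.0 from P10 to Adult. Fbn2, the fibrillin of fetal microfibrils, went from 8.93 and 9.07 to 5.51 and 4.76, and the microfibril protein Mfap2 fell by 1.33. The microfibril protein Mfap5 rose from 7.32 and 7.61 to 10.38 and 9.93, and the fibulin Efemp1 from 8.63 and 8.64 to 10.96 and 10.94. Fbln5, which links elastin to cells, differed by -0.44 and was not called. With the mean over all probe sets, 2 elastic fibre genes were lower.

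Of 21 basement membrane genes 5 were lower and 0 higher, with a median of -0.45: nidogen 2 (Nid2), at 9.33 and 9.19 against 6.41 and 6.80, and the laminin chains Lamb1, Lama4, Lama5 and Lamc1, which fell by 1.39, 1.34, 1.31 and 1.24. The type IV collagens Col4a1 and Col4a3 differed by -0.62 and 0.41. Of 20 genes of fibrillar collagens and their enzymes 3 were lower and 1 higher: Col14a1 fell from 11.09 and 11.23 to 8.97 and 8.85, the crosslinking enzyme Lox from 12.90 and 12.85 to 11.25 and 10.52 and Col5a1 by 1.32, while the procollagen protease enhancer Pcolce rose by 1.34. Pcolce lost its call without E18 replicate 1. The main chains Col1a1 and Col3a1 differed by -0.65 and -0.07. Of 22 interstitial matrix genes 5 were lower and 3 higher. Hapln1, the link protein of hyaluronan, fell by 3.62 and tenascin C (Tnc) by 1.64, the latter with steps of 1.51, 0.92 and -4.08. Tenascin X (Tnxb) rose from 6.4 and 6.32 to 9.91 and 9.77 and lumican (Lum) by 1.26.

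Among mesenchymal cells, the contractile genes of smooth muscle had 8 of 20 members higher and 1 lower, with a median of 0.69. Calponin (Cnn1), which binds actin in smooth muscle, read 6.77 and 6.72 at E18 and 10.38 and 9.70 in Adult, a rise of 3.29 (SE 0.18, adjusted p = 1.77e-08). Desmin (Des) rose by 1.55, tropomyosin 2 (Tpm2) by 1.48, and smooth muscle myosin (Myh11) by 1.42. In each, Adult replicate 1 was higher than Adult replicate 2. The arrays of E18 and Adult did not overlap in any of the 898 called genes, so their separation is not particular to these. Without Adult replicate 1, 3 members were higher, and with the mean over all probe sets 4 were. Acta2, smooth muscle actin, differed by 0.98. Of 14 pericyte genes 3 were lower: the potassium channel subunits Kcnj8 and Abcc9, which form 1 channel, fell from 9.61 and 9.52 to 7.76 and 7.40 and from 10.01 and 9.68 to 8.27 and 8.26, and Ndufa4l2 fell by 1.74. Pdgfrb, their defining receptor, differed by 0.27 and Rgs5 by 0.74. In the list of lipid-handling fibroblasts Inmt, an amine methyltransferase, rose by 2.19, and Tcf21, a transcription factor of lung fibroblasts, fell from 13.36 and 13.29 to 11.24 and 11.57. Its lipid genes Plin2 and Pparg differed by -0.36 and 0.29.

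Few developmental signals were called, and the share called higher was near that of all genes. Of 40 ligands, receptors and inhibitors 2 were lower and 1 higher, which is 5% and 2.5%, beside 2.00% and 2.94% of all genes. At a limma adjusted p under 0.05 alone, 18 of the 40 were lower and 8 higher, beside 3637 and 3494 of all 18193 genes. Sonic hedgehog (Shh), the epithelial ligand of branching, fell from 11.76 and 11.81 to 10.06 and 9.87, and Hhip, the inhibitor that binds it, from 10.83 and 10.93 to 9.16 and 9.16. Bmp6 rose from 7.98 and 7.72 to 10.50 and 10.73. Their relatives Ptch1, Fgf10, Wnt5a and Notch1 differed by -0.29, -0.73, -0.57 and 0.60. Of 37 transcription factors of the lung 4 were lower and 1 higher. Elf5 and Sox9, factors of distal epithelial progenitors, fell from 11.13 and 11.01 to 8.67 and 8.46 and from 7.92 and 7.29 to 6.06 and 5.77, and Sox11 and Foxp2 by 1.57 and 1.56. The flow-responsive factor Klf2 rose from 9.48 and 9.24 to 10.94 and 11.48. Nkx2-1, the factor that specifies lung epithelium, differed by -0.86, and Foxa2 by 0.09.

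Of 24 genes of type II cells, which make surfactant, 2 were higher (8.33%, beside 2.94% of all genes) and 1 was lower, with a median of 0.01. Surfactant proteins Sftpb and Sftpd differed by 0.37 and 0.98, and the lipid transporter Abca3 by -0.23. Called were the chitinase-like protein Chil1, at 8.58 and 8.95 against 10.61 and 10.68, the fatty acid receptor Cd36, which endothelium also makes, with a rise of 1.28, and the resistin-like protein Retnla, with a fall of 1.80. Of 19 genes of type I cells, which form the gas exchange surface, 2 were higher (10.5%), 0 lower and the median was 0.39. At an adjusted p under 0.05 alone, 13 of the 19 were higher and 0 lower, and of the 24 type II genes 6 were higher and 5 lower, beside 3494 higher and 3637 lower among all 18193 genes. The 2 called type I genes were Igfbp2, described above with its low point at E18, and the semaphorin Sema3b, at 8.07 and 8.08 against 9.25 and 9.47. The water channel Aqp5, Hopx and Pdpn differed by 1.10, 0.36 and 0.32. Surfactant lipid and fatty acid synthesis had 2 of 27 members higher, among them the elongase Elovl1 with 1.52, and cholesterol synthesis 1 of 20, Msmo1 with 1.57. Fasn differed by -0.30.

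Airway secretory genes had many higher members. Of 29 genes of club and other secretory airway cells 12 were higher and 1 lower, with a median of 1.14. Besides Bpifa1, the related Bpifb1 rose from 6.54 and 6.4 to 9.61 and 9.18. Pigr, the receptor that carries IgA across the epithelium, read 4.26 and 4.07 at E18 and 8.68 and 8.31 in Adult, a rise of 4.33 (SE 0.12, adjusted p = 5.78e-11). Aldh1a1, which oxidises retinal, went from 10.75 and 10.88 to 13.83 and 13.74. Club cell secretory protein itself (Scgb1a1) read 13.95 and 13.96 against 14.99 and 14.91, a difference of 0.99 (SE 0.64, limma adjusted p = 0.261). That SE pools the replicates of all 7 time points and is wider than the gaps between replicates of E18 and of Adult. The value of 14.99 was the highest on the arrays, and whether the top of the scale limited the difference was not tested. Scgb3a2 differed by 0.11. Krt15, a keratin of basal cells, fell from 8.24 and 8.44 to 6.05 and 6.16. Of 32 genes of motile cilia 1 was higher, Tppp3, at 10.22 and 10.46 against 12.22 and 12.01, while the master factor Foxj1 differed by 0.10 and the dynein chain Dnah5 by 0.55.

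Detoxification enzymes, many of them made in club cells, had 16 of 39 members higher and 1 lower, with a median of 1.19. Sult1d1, a sulfotransferase, read 3.18 and 3.48 at E18 and 8.57 and 8.18 in Adult, a rise of 5.05 (SE 0.13, adjusted p = 2.02e-11), and the glutathione transferase Gsta3 went from 6.38 and 6.63 to 11.20 and 11.52. The cytochrome P450 Cyp2b10 rose from 7.55 and 7.53 to 12.07 and 12.05, with steps of 0.41, 0.23 and 3.88. The carboxylesterase Ces1f rose by 3.12. Cyp1a1, the target of the aryl hydrocarbon receptor, took another course, with steps of 3.82, -1.99 and 1.06, and its E18 arrays were far apart at 4.62 and 6.30. The lower member was the alcohol dehydrogenase Adh1, from 13.40 and 13.41 to 11.53 and 11.49. Aldh3a1 and Ces1g differed by 3.08 and 2.54 and were not called, because their Adult means stayed under 7. Among 17 antioxidant genes 3 were higher. Sod3, the superoxide dismutase of the extracellular matrix, rose from 5.98 and 5.91 to 11.35 and 10.92, a difference of 5.19 (SE 0.15, adjusted p = 6.62e-11), and Gpx2, an epithelial glutathione peroxidase, from 6.94 and 6.67 to 9.52 and 9.08. The intracellular dismutases Sod1 and Sod2 differed by 0.09 and 0.33, and catalase (Cat) by 0.39.

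Antigen presentation had the highest share of called members of the 50 lists, 14 of 21 higher (66.7%) and 0 lower, with a median of 1.80. At a limma adjusted p under 0.05 alone, 20 of the 21 were higher and 1 lower, beside 3494 and 3637 of all 18193 genes. Class II molecules display peptides to helper T cells. H2-Ab1 read 6.38 and 6.72 at E18 and 12.36 and 12.64 in Adult, a rise of 5.95 (SE 0.25, adjusted p = 1.82e-09), in steps of 1.41, 2.87 and 1.67. H2-Aa went from 6.83 and 7.20 to 11.97 and 12.38, H2-Eb1 from 6.25 and 6.45 to 10.29 and 11.23, and their chaperone, the invariant chain Cd74, from 8.17 and 8.44 to 12.38 and 12.51. Among class I molecules, carried by nearly all cells, H2-K1 rose by 1.85, H2-D1 by 1.58 and their light chain B2m by 1.80. The widest step of H2-K1 was 1.70 between P10 and Adult. H2-K1 and H2-D1 are close relatives, and their probes may share transcripts. Ciita, the master regulator of class II genes, differed by 1.25 with Adult values of 6.39 and 6.4, under the level threshold.

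Lists of B cells, T and NK cells, and macrophages held higher and no lower members. Of 20 B cell genes 8 were higher and 0 lower, with a median of 1.53. Jchain, the chain that joins IgA and IgM, read 4.08 and 4.16 at E18 and 8.10 and 8.50 in Adult, a rise of 4.18 (SE 0.12, adjusted p = 5.78e-11), and the heavy chain Igha went from 7.19 and 7.32 to 10.35 and 10.09. Both moved between P10 and Adult, by 4.0 and 2.84, as did Pigr, by 3.40. The membrane protein Ms4a1 had a step of 2.93 between E18 and P2. With the mean over all probe sets, 5 B cell genes were higher. Of 26 T and NK cell genes 8 were higher and 0 lower, with a median of 1.25, led by the receptor subunits Cd3g, from 4.03 and 3.96 to 7.60 and 7.86, and Cd3d, with 2.74, and by Cd2, with 2.95. The costimulator Cd28 and the NK receptor Klrd1 differed by 2.75 and 3.19 with Adult means under 7, and Cd8a by 0.08.

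Macrophage and dendritic cell genes had 12 of 34 members higher and 0 lower, with a median of 0.77. The proton pump subunit Atp6v0d2 rose from 5.08 and 5.0 to 8.56 and 8.65, with a step of 3.13 by P2. The integrin Itgax, carried by alveolar macrophages and dendritic cells, rose from 5.81 and 6.20 to 9.11 and 9.36, and the fatty acid binding protein Fabp1 by 3.52. Siglecf, a marker of alveolar macrophages, differed by 3.23 with Adult values of 6.53 and 7.02. Adgre1 and Mertk, carried by macrophages at large, differed by 0.74 and -0.47. Among 25 chemokines 5 were higher and 0 lower: Ccl6 rose from 8.46 and 8.59 to 12.07 and 12.11, with a step of 3.52 to P2, Cxcl14 by 2.62, with a step of 2.51 after P10, and Cxcl16, Ccl5 and Cxcl12 by 1.91, 1.87 and 1.39. Of 22 neutrophil, basophil and mast cell genes 3 were higher and 1 lower. S100a9 rose by 1.31 through steps of 2.31, -1.72 and 0.72, and the granule peptide Camp fell by 1.46.

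Soluble defence and interferon genes were called mostly higher. Of 19 complement genes 3 were higher, the proteases C1s1, from 7.61 and 7.53 to 10.35 and 10.46, and C1ra, with 1.97, and factor B (Cfb), with 1.75. The subunit C1qa, made by macrophages, differed by 0.68. Of 28 interferon-response genes 7 were higher and 1 lower, with a median of 0.55. Ifit3 rose from 6.14 and 5.96 to 8.87 and 9.68 and the GTPase Gbp2 from 7.54 and 7.77 to 10.42 and 10.43, while Ifitm1 fell by 1.75. Not called were Rsad2 at -1.10, Iigp1 at -1.09, Irf7 at 0.54 and Mx1 at 0.55.

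The endothelium had 17 of 46 members called higher and 0 lower, with a median of 0.53. At a limma adjusted p under 0.05 alone, 31 of the 46 were higher and 6 lower, beside 3494 and 3637 of all 18193 genes. Hpgd, which inactivates prostaglandins, read 9.13 and 8.92 at E18 and 13.49 and 13.71 in Adult, a rise of 4.58 (SE 0.14, adjusted p = 7.75e-11), of which 2.96 had been gained by P2. Tmem100, a target of BMP signalling in vessels, went from 8.77 and 8.19 to 12.36 and 12.33, with 2.84 by P2. Von Willebrand factor (Vwf) rose from 9.17 and 9.06 to 11.91 and 11.86, the capillary carbonic anhydrase Car4 from 8.43 and 8.75 to 11.19 and 11.39, and the angiopoietin receptor Tek by 2.28. Of the markers that all endothelial cells carry, Pecam1, Cdh5 and Kdr differed by 0.50, 0.40 and 0.53, under the difference threshold, and were not called. The limma adjusted p was 0.00481 for Pecam1 and 0.0135 for Cdh5. Emcn, another endothelial gene, differed by -0.91 and was not called. Cyp4b1, which rose by 2.45, is also a member of the airway list.

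Of 31 vasoactive and fluid clearance genes 6 were higher and 4 lower. The angiotensin type 2 receptor Agtr2, a fetal receptor, fell from 8.10 and 8.07 to 4.93 and 4.73, with a step of -3.05 between P2 and P10. Angiotensinogen (Agt), the precursor of its ligand, fell by 2.45 with steps of -0.13, 1.32 and -3.65, while the converting enzyme Ace rose from 9.42 and 9.41 to 10.95 and 11.10. The cyclooxygenase Ptgs2 rose from 4.31 and 4.55 to 8.22 and 7.64 and prostacyclin synthase (Ptgis) by 1.42. The transporters of fetal lung fluid secretion Cftr and Slc12a2 fell from 9.31 and 9.01 to 7.43 and 7.46 and by 1.23. The sodium channel subunit Scnn1b, of fluid absorption, rose by 1.24, and Scnn1a differed by 0.73.

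Genes of the circadian clock moved in both directions. Of 20, 5 were higher and 2 lower. Dbp, an output factor of the clock, read 7.12 and 7.11 at E18 and 10.34 and 10.70 in Adult, a rise of 3.41 (SE 0.17, adjusted p = 6.37e-09). The repressors Nr1d2 and Nr1d1 rose from 8.94 and 8.83 to 11.81 and 11.98 and from 6.48 and 6.25 to 8.85 and 8.67, and Rora and Hlf by 1.56 and 1.24. Arntl, the activator that Nr1d1 represses, fell from 8.62 and 8.46 to 6.90 and 6.71, and Nfil3, which competes with Dbp for its sites, from 7.94 and 7.79 to 5.80 and 5.81. Of the others, Cry1 differed by -1.19, Npas2 by -0.60, Per1 by -0.37, Per2 by -0.37, Wee1 by -0.03, Clock by 0.06 and Bhlhe41 by 0.27. Cry2 differed by 0.36, Bhlhe40 by 0.39, Tef by 0.68, Per3 by 0.87, Usp2 by 0.92 and Ciart by 1.15. The hour at which lungs were taken is not given in the sources used here, so the hour and age cannot be told apart. With the mean over all probe sets, 3 were higher and 1 lower, with Arntl at -1.14 not called. E-boxes (CACGTG), to which Arntl binds, were found in 27.3% of 22 promoters of the list, beside 8.72% of all promoters of genes tested, but in 0 of the 8 promoters of its 7 called members.

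Hormone-responsive genes were mixed. Of 29 known targets of glucocorticoid or thyroid hormone 4 were lower and 2 higher. Fkbp5, a chaperone that glucocorticoid induces, fell from 10.48 and 10.50 to 8.22 and 7.89, with steps of -2.08, -1.08 and 0.74, and the metallothioneins Mt2 and Mt1 fell by 2.03 and 1.82. The kinase Sgk1 rose from 9.70 and 9.58 to 11.55 and 11.43, with a step of 2.09 to P2, and the phosphatase Dusp1 by 1.92. Tsc22d3, Per1 and Zbtb16, targets of the same receptor, differed by 0.51, -0.37 and -0.92. Of 28 immediate early and stress genes 4 were higher and 1 lower. Egr1 read 7.41 and 7.69 against 10.54 and 9.12 and Nr4a1 8.09 and 7.92 against 10.23 and 9.12, in both cases with Adult replicate 1 the higher by more than 1, and Fos differed by 1.02. Without Adult replicate 2, 8 of these genes were higher.

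Lists of other tissues and cells that a dissected lung can hold were read next. Whether such cells were part of the lung or carried along was not tested. Of 13 fat genes 2 were higher: adiponectin (Adipoq) read 3.55 and 3.44 at E18 and 7.72 and 6.74 in Adult, and Car3 5.43 and 5.47 against 9.25 and 8.04. The log2 of the summed level of the 13 was 10.33 and 10.18 at E18 and 11.37 and 10.91 in Adult, and the brown fat marker Ucp1 lay between 4.49 and 4.71 on all 4 arrays. Of 24 heart muscle genes 6 were higher, with summed levels of 13.27 and 13.50 against 14.48 and 14.16. Myoglobin (Mb) rose from 6.15 and 6.13 to 10.33 and 9.93 and sarcolipin (Sln) by 2.13, whereas the ventricular light chain Myl2 lay between 4.73 and 4.90 and the atrial light chain Myl7 differed by 0.19. The heart count fell to 3 without Adult replicate 1, without E18 replicate 1, with an intensity trend and in the ANOVA contrast. The part of these tissues in other results was not tested.

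Of 22 red cell genes 3 were lower, the embryonic globin Hbb-y, from 8.65 and 8.53 to 4.24 and 3.69, the erythroid enzyme Alas2 and the anion exchanger Slc4a1. The count was 5 without Adult replicate 1 and 1 without Adult replicate 2. Liver and thymus lists had 0 of 15 and 0 of 13 members called, with medians of -0.01 and 0.10 and defining genes Alb and Rag1 at differences of -0.20 and 0.13. At an unadjusted p under 0.05 in limma, 3 liver and 4 thymus genes differed. All differences in these lists lay between -0.58 and 1.11, so the ANOVA contrast, with the same difference threshold, could call none. Skeletal muscle had 1 of 19 lower (Tnni1), nerve and glia 2 of 20 higher (Stmn2 and Gap43), cartilage 1 of 17 higher (Cytl1) and 2 lower (Sox9 and Hapln1), and mesothelium 1 of 16 higher (Gpm6a) and 2 lower (Msln and Krt18). Mesothelin (Msln), a surface protein of the pleura, fell from 11.65 and 11.48 to 9.06 and 9.02, and the pleural markers Upk3b and Wt1 differed by 0.48 and -0.01.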

How the data were processed

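Total RNA of pooled mouse lungs had been measured on 14 Affymetrix mouse genome arrays, 2 at each of 7 time points. The authors deposited log2 values per probe set. Their methods name Robust Multichip Average in Partek Genomics Suite 6.4, whereas the submitters' processing notes name Partek 6.4 and GCRMA without a version, so it is not known which gave the values. The array number limits the precision, and 26.5% of values lay under 5, where differences are uncertain.

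Of 45101 probe sets, 64 AFFX controls were left out. The platform annotation gave 34945 probe sets 1 symbol, 932 several and 9160 none; only the first were used for genes. In R 4.3.3 with limma 3.58.1, a mean for each time point was fitted to all 14 arrays (residual df 7, prior df 6.04), with Benjamini-Hochberg adjustment over all 45037 probe sets. The cutoffs of 1.2 and 7 are those of the study's methods, which set them on the range and the maximum of a probe set over the whole course; here they were set on 1 difference and the higher of both means. Named are the 20 largest rises and falls, the 5 largest of each step and, in each of 50 gene lists, up to 5 called members a direction and up to 4 others; all clock genes are given. Of 1308 listed symbols 1210 were on the array. The comparison, lists and rules were chosen with earlier results of these data known. Replicate numbers gave no sign of pairing: deviations of replicate 1 correlated at -0.133 between E18 and Adult. Promoters came from RefSeq (GRCm38.p6). Scripts were tested on simulated data.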

Additional observations from a re-analysis of the deposited data

How the results depend on the processing

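The counts of 534 higher and 364 lower genes moved by under 1.5 times under each setting given here except a difference above 2. With quantile normalization 583 were higher and 352 lower, with arrays centred on 1 median 570 and 348, with the 4 arrays of E18 and Adult alone 536 and 363, with an intensity trend and in the unmoderated ANOVA contrast 530 and 362. Leaving out each array in turn gave 532 to 538 higher and 352 to 407 lower genes. A difference above 2 left 176 higher and 113 lower, a difference above 1 gave 724 and 524, no threshold on level 622 and 417, a level above 8 416 and 290, and the mean over all probe sets of a gene 412 and 264. With the replicate block 535 were higher and 364 lower, and 534 and 364 of them were the same genes; the crossed pairing, chosen after seeing the data, gave 534 and 364. Precision is limited by groups of 2 arrays and by levels near the bottom of the scale, where the lower mean of 52 called genes lay under 5. Among the 289 genes named, 191 of them called, differences close to 0 changed sign in genes that were not called. With quantile normalization Col3a1 differed by 0.09, Sftpc by 0, Ucp1 by -0.02 and Wee1 by 0.03, and with centring Myl2 by 0.01, Slc4a9 by 0.01, Wee1 by 0 and Wt1 by 0.03. With the mean over all probe sets Clock differed by -0.47. Leaving out each array in turn gave ranges of -0.06 to 0.42 for Bsnd, -0.19 to 0.15 for Slc4a9, -0.03 to 0.14 for Clock, -0.02 to 0.20 for Foxa2, -0.07 to 0.27 for Foxj1, -0.26 to 0.02 for Mcm3, -0.10 to 0.06 for Myl2, -0.02 to 0.40 for Myl7, -0.08 to 0.13 for Ucp1, -0.07 to 0.01 for Wee1 and -0.04 to 0.03 for Wt1. Calls of some named genes were lost with 1 array left out, at these differences. Without Adult replicate 1 these were Adipoq (3.24), Lum (1.14), Nr4a1 (1.12), S100a9 (1.07), Tnni1 (-2.12) and Tpm2 (1.03). Without Adult replicate 2 they were Alas2 (-0.63), Ezh2 (-1.14), Krt18 (-1.13), Retnla (-0.99), Rrm2 (-0.84), Sema3b (1.18), Slc12a2 (-1.11), Slc4a1 (-0.79), Tnc (-1.02) and Tnni1 (-2.04). Without E18 replicate 1 they were Alas2 (-1.07), Lama5 (-1.18), Pcolce (1.16), S100a9 (1.11) and Slc12a2 (-1.06). Without E18 replicate 2 they were Hlf (1.16), Tnni1 (-1.88) and Uty (-1.90). With quantile normalization and with centring, Alas2, Slc12a2 and Uty were no longer called. More were lost with the mean over all probe sets, 32: Arntl (-1.14), Car3 (2.65), Cftr (-1.17), Cxcl12 (0.66), Dcn (1.18), Des (0.93), Eif2s3y (-2.43), H2-D1 (1.05), Hapln1 (-2.56), Hlf (1.18), Hmga2 (-1.50), Kdm5d (-1.68), Lama5 (-1.05), Mfap2 (-0.71), Ms4a1 (2.59), Ms4a4b (2.48), Msmo1 (0.93), Mt1 (-1.01), Myh11 (0.90), Nrk (-2.44), Phex (-0.79), Rora (1.12), Scara5 (-1.09), Sema3b (1.11), Slc4a1 (-1.18), Sln (1.08), Sox11 (-1.05), Sox9 (-1.06), Top2a (-1.01), Tpm2 (1.08), Trbv1 (2.16) and Uty (-2.28). A difference above 2 lost 68 and a level above 8 lost 21 of them.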

Other observations

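The genes in this part were chosen after their values had been seen, so their counts describe these arrays only. Over all genes, 2.94% were called higher and 2.00% lower in Adult than at E18. Glycogen is stored by the fetal lung epithelium and used up around birth. Of 25 genes of glycogen synthesis, breakdown and their regulators, 6 were lower in Adult than at E18 and 0 higher, with a median of -0.13. Ppp1r3b, a subunit that directs protein phosphatase 1 to glycogen, read 10.66 and 10.56 at E18 and 6.92 and 6.99 in Adult (difference -3.65, limma adjusted p = 5.65e-10), and its mean at P2 was already 7.15. The related subunit Ppp1r3c fell by 2.78, with a mean of 11.37 still at P10. Stbd1, which binds glycogen, fell by 2.77, with means of 9.43 at P10 and 7.64 in Adult. The liver-type phosphorylase Pygl fell by 2.02 and the primer glycogenin (Gyg) by 1.61, while glycogen synthase Gys1 differed by -1.01 and was not called. Pygl and Pgm1, the remaining lower gene, had means of 9.28 and 8.76 at P10, beside 9.59 and 8.73 in Adult. Gyg had a mean of 13.47 at P10 and 11.74 in Adult.

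Of 4 genes of the Fraser complex, which anchors epithelium to its basement membrane in the embryo, Frem1, Fras1 and Frem2 fell by 3.23, 2.35 and 2.35, and the adaptor Grip1 differed by -0.30. Frem1 and Fras1 had means of 9.99 and 8.17 at P10 and of 6.83 and 6.36 in Adult, whereas Frem2 had fallen step by step from 10.23 at E12. Of 7 secreted class 3 semaphorins 4 were higher and 0 lower. Sema3c, a guidance cue for neurons and vessels, read 9.35 and 9.35 at E18 and 12.78 and 12.94 in Adult, and Sema3g rose by 2.99. Of 6 netrins, Ntn1 and Ntn4 rose by 2.86 and 2.53.

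Of 9 genes of acid and ion pumps, 3 were lower and 1 higher, with a median of -0.19. The pump subunits Atp12a and Atp6v0a4, of acid transport, had their highest means at E18, 7.50 and 7.54, and lay at 4.56 and 4.87 at P2 and at 3.96 and 4.62 in Adult. Tmem213 went from 10.33 at E18 to 6.77 in Adult. Atp6v0d2, another pump subunit, moved the opposite way, from 5.04 to 8.61. Not called were Atp6v1c2 at -1.16, Atp6v1b1 at -0.19, Slc4a9 at -0.02, Bsnd at 0.18 and the factor Foxi1 at 0.33.

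The probe set named Trbv1, a T cell receptor segment, was among the 20 largest rises, but on the E16 arrays it read 7.88 in replicate 1 and 3.95 in replicate 2, where myoglobin (Mb) read 9.38 and 6.30. Its Adult values were 7.96 and 8.23, and it was not counted among the T cell genes.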
